A study of Rattus norvegicus with 9 samples.

Results

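The transcripts described here encode the enzymes that write and remove DNA methylation: the DNA methyltransferases Dnmt1, Dnmt3a and Dnmt3b, the TET dioxygenases Tet1, Tet2 and Tet3, and Uhrf1, the partner that guides Dnmt1. They were taken by gene symbol, and all 7 symbols sought were found, on 1 line each, among 30452 features of every count table. Poly(A) RNA of arteries from adult rat offspring aged 3 to 5 months was sequenced, with 3 libraries in each of 3 groups. MAH is mesenteric artery of offspring whose dams drank 20% sucrose water in pregnancy. PAC is pulmonary artery, and MAC mesenteric artery, of offspring whose dams drank ordinary water. All dams ate standard diet. The labels give treatment only as the letter C or H, read here as the control and sucrose groups of the study design. The labels state neither strain nor sex, and they do not say whether each library had its own animal or litter. The p-values therefore measure only a spread between samples, which may be technical. Both comparisons made below share the MAC libraries.

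In mammals, methyl groups on cytosines of CG pairs are copied to the new strand after replication. Uhrf1 binds the half-methylated pairs and brings Dnmt1, the maintenance methyltransferase, while Dnmt3a and Dnmt3b place methyl groups on unmethylated DNA. Tet1, Tet2 and Tet3 oxidise methylcytosine, which starts its removal, and TET2 has been described in human and mouse arteries as a regulator of smooth muscle phenotype. Uhrf1 and Dnmt1 are transcribed most in dividing cells. RNA abundance was measured here, not methylation or enzyme activity.

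Total counts ran from 10388231 to 15420546 per library, so 1 count stood for 0.0645 to 0.0955 CPM (counts scaled to a common total by edgeR's TMM method). The smooth muscle genes Acta2 and Myh11 were present in every library, but pulmonary replicate 4 stood apart. Its 8 smooth muscle markers summed to 3399 CPM, against 10227 to 41817 CPM in the other 8 libraries. Its 12 lymphocyte markers summed to 2153 CPM, against 16.5 to 48.8 CPM elsewhere, with Cd3e, a T cell receptor chain, at 86.6 CPM. The 19 cell cycle genes measured summed to 1583 CPM there, against 89.1 to 165 CPM elsewhere, and its 8 lung epithelium markers to 733 CPM, with 3 to 7 of those 8 at 0 in each mesenteric library. No lymphocyte marker was at 0 in any library. Pulmonary replicate 2 held 15450 CPM of 9 cardiac muscle markers, against 1427 CPM in replicate 4 and 32.7 to 111 CPM in the mesenteric libraries and pulmonary replicate 1. Its lung epithelium markers summed to 72.6 CPM, against 5.32 to 10.7 CPM in the mesenteric libraries and pulmonary replicate 1. Fold changes of the 7 genes and counts over gene lists in pulmonary artery are therefore given with and without replicate 4. In bulk arteries, fewer cells of a type and less RNA per cell cannot be told apart.

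Uhrf1, the hemimethylation reader, varied most of the 7 genes. In MAH replicates 1, 2 and 3 it had 18, 30 and 48 counts, or 1.39, 2.85 and 4.58 CPM. In PAC replicates 1, 2 and 4 it had 9, 13 and 881 counts, or 0.75, 0.93 and 56.9 CPM. In MAC replicates 1, 2 and 3 it had 10, 16 and 7 counts, or 0.67, 1.38 and 0.65 CPM. Pulmonary replicate 4 thus lay far above all others, while the other pulmonary libraries lay within the range of the mesenteric controls. Dnmt1, the maintenance methyltransferase, was at 35.6, 36.3 and 27.6 CPM in MAH and at 20.5, 28.5 and 117 CPM in PAC replicates 1, 2 and 4, against 29.3, 24.9 and 33.1 CPM in MAC. Its lowest and its highest value of the 9 libraries were both pulmonary.

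The windows of 250 bases before the annotated starts of Uhrf1 and Dnmt1 are shown because these genes were high together in the library with the most cell cycle transcripts. Capitals mark letters of the E2F type, the site class of the E2F factors that drive S phase genes, searched on both strands as TTTCCCGC, TTTCGCGC, TTTGCCGC and TTTGGCGC. The sequences are from RefSeq on GRCr8, a later build than the rn7 named for the counts, and read 5′ to 3′ on the gene's strand.
Uhrf1, the start with matches, chr9:1222936-1223185, plus strand: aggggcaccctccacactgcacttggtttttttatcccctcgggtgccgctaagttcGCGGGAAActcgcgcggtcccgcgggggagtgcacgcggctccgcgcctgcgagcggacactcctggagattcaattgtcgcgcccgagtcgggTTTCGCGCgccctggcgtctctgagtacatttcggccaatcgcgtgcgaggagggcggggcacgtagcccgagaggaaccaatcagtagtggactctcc
Dnmt1, chr8:27762842-27763091, minus strand: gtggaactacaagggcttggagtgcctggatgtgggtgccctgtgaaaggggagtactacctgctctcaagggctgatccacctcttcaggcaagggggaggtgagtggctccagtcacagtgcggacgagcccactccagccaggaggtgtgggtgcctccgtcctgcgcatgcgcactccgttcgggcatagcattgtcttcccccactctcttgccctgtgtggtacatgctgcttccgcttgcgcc
The Uhrf1 window held 2 matches, which begin 193 and 99 bases before the start, and 30 CG pairs. Of 33469 such windows in the table, 1.73% held at least 1 match and 0.0747% held 2 or more, and the median window had 5 CG pairs. The Dnmt1 window held no match and 9 CG pairs. The other 2 Uhrf1 starts and the windows of Dnmt3a, Tet1, Tet2 and Tet3 held none either. Counted by gene, with a match in any of its windows, 6 of 13 cell cycle genes had a match, against 1.91% of 27457 genes. Among the maintenance and de novo partners described below it was 3 of 15. Every run of letters searched holds a CG pair, so windows rich in CG pairs can match more often, and these shares were not matched for CG content. The part of such letters in the levels of Uhrf1 was not tested. A match is a run of letters, not a bound site.

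**Figure D1:**
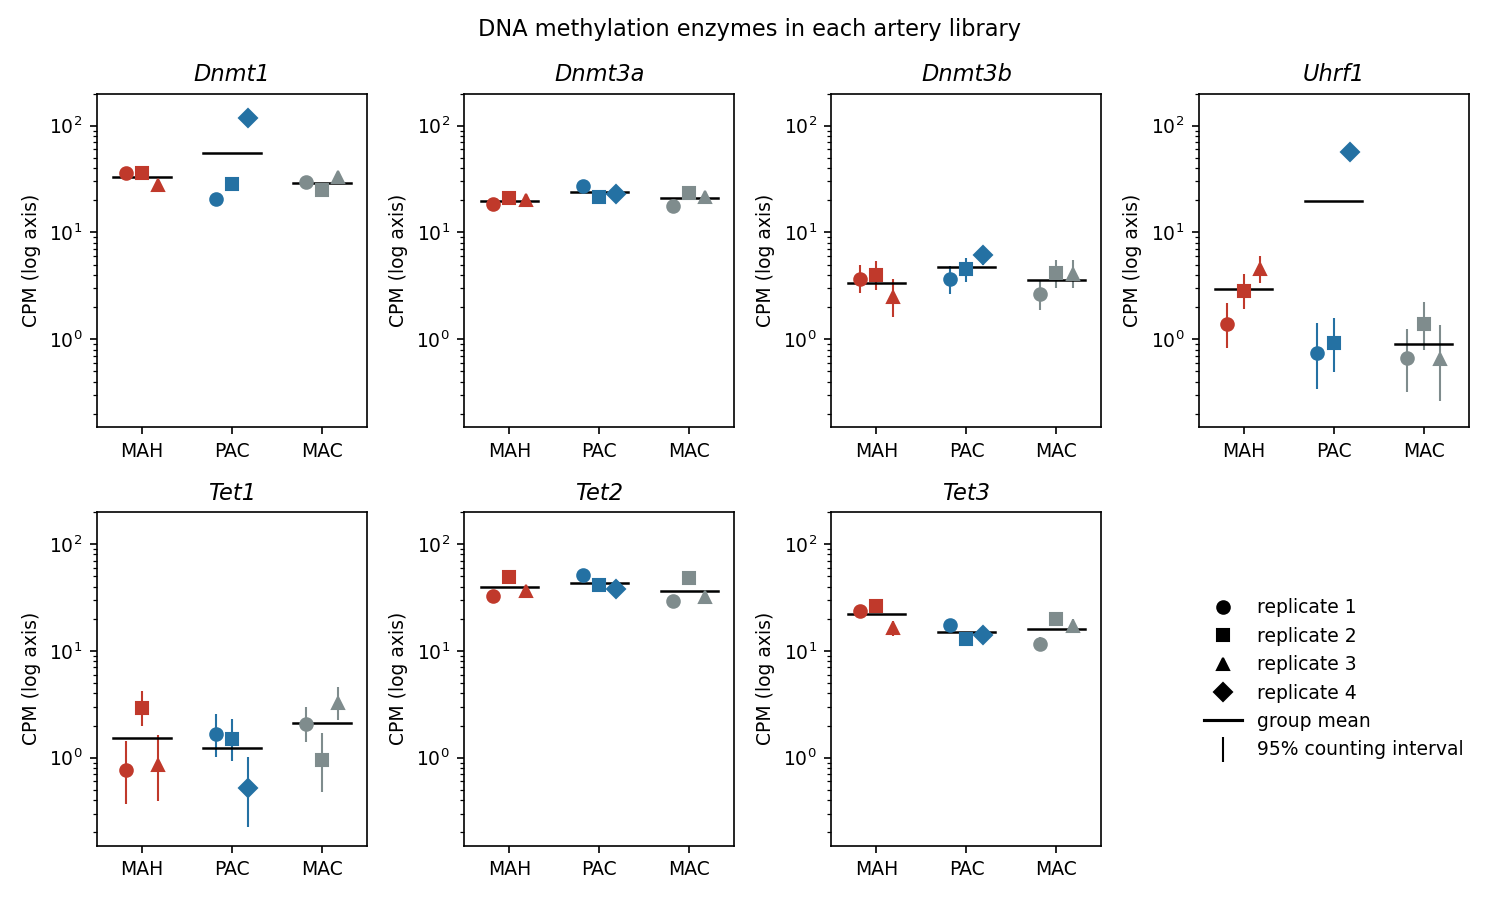
Level of each of the 7 genes in every library, in CPM on a log axis. Points are single libraries with 95% counting intervals, symbols give the replicate number, colours the group, and black lines the group mean (n = 3). Uhrf1 and Dnmt1 in pulmonary replicate 4, at 56.9 and 117 CPM, lie above all other libraries, while Dnmt3a and Tet2 stay within a narrow band.

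The de novo enzymes varied little. Dnmt3a was at 18.5, 20.9 and 20.0 CPM in MAH and 27.3, 21.6 and 22.7 CPM in PAC, against 17.6, 23.3 and 21.7 CPM in MAC. Across the 9 libraries its highest value was 1.55 times its lowest, the narrowest range of the 7 genes. In MAH its coefficient of variation was 6.04%, below the 6.70% that counting error alone gives at its mean count. Dnmt3b, the less counted de novo enzyme with 26 to 95 counts per library, was at 3.70, 3.99 and 2.48 CPM in MAH. It was at 3.64, 4.51 and 6.13 CPM in PAC and at 2.63, 4.13 and 4.11 CPM in MAC. Its highest value was again in pulmonary replicate 4, and the 3 groups overlapped.

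The TET genes showed different patterns from one another. Tet1 was scarce, with 8 to 35 counts per library. It was at 0.77, 2.94 and 0.86 CPM in MAH and at 1.66, 1.50 and 0.52 CPM in PAC, against 2.09, 0.95 and 3.27 CPM in MAC. The spread lay within the groups: the highest value was 3.81 times the lowest in MAH, 3.21 times in PAC and 3.45 times in MAC. Tet2 was at 32.5, 49.6 and 36.5 CPM in MAH and 51.6, 41.5 and 37.6 CPM in PAC, against 29.5, 48.6 and 31.8 CPM in MAC, with replicate 2 the highest of each mesenteric group. Tet3 was at 23.6, 26.1 and 16.2 CPM in MAH and 17.6, 12.9 and 14.2 CPM in PAC, against 11.7, 19.7 and 17.1 CPM in MAC. The MAH replicates 1 and 2 were the highest 2 of the 9 libraries for Tet3, while MAH replicate 3 lay within the controls.

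All 7 genes passed the filter on low counts in both comparisons. The comparison of sucrose with control mesenteric artery asked whether these transcripts differed in offspring of sucrose-drinking dams. Uhrf1 averaged 2.94 ± 1.60 CPM in MAH and 0.90 ± 0.41 CPM in MAC (SD, n = 3 each). Its fitted difference was the largest of the 7, 3.25-fold higher (log2 fold change 1.70 ± 0.60 SE, 95% interval 0.29 to 3.11), but it did not pass (adjusted p = 1.00 by edgeR's quasi-likelihood test over 13995 genes, and 0.851 to 1.00 over the alternatives fitted). Tet3 averaged 22.0 ± 5.13 CPM in MAH and 16.2 ± 4.08 CPM in MAC (log2 fold change 0.45, 95% interval −0.20 to 1.10). Dnmt1 averaged 33.2 ± 4.83 CPM in MAH and 29.1 ± 4.10 CPM in MAC, and Dnmt3a 19.8 ± 1.19 CPM in MAH and 20.9 ± 2.93 CPM in MAC, so each pair of means differed by less than the spread between replicates.

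None of the 7 genes passed in MAH against MAC, where 0% of all genes did, with 279 genes at an unadjusted p under 0.05, and where DESeq2 called 3 genes and limma-voom 0. At an unadjusted p under 0.05 there was 1 of the 7, Uhrf1, against 1.99% of all genes in either direction and 0.865% higher in MAH. Uhrf1 was no longer below that p in a joint fit of the 9 libraries, without MAH replicate 3, without MAC replicate 1 or without MAC replicate 3. Uhrf1 was also the only one of the 7 whose groups did not overlap, where 5.99% of all genes did not, 2.66% being higher in MAH and 3.33% lower. The gap was narrow: 1.39 CPM in MAH replicate 1 against 1.38 CPM in MAC replicate 2. Scaled by median-ratio factors the order of those libraries turned, to 1.36 CPM in MAH replicate 1 against 1.39 CPM in MAC replicate 2, and by upper quartile factors to 1.38 against 1.44 CPM, so the groups then overlapped. Uhrf1 was tested only because MAH reached the filter, 0.893 CPM of unscaled totals, in 3 of 3 libraries, while MAC reached it in 1 of 3. Its counts under that unadjusted p and without overlap are therefore no sign of a difference. For Tet1 it was MAC that reached the filter in 3 of 3 libraries, and MAH in 1 of 3.

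The intervals show what the remaining genes allow. For Dnmt1 the fold difference of MAH over MAC lay between 0.85 and 1.56 at 95% confidence (log2 fold change 0.20 ± 0.19 SE), and for Dnmt3a between 0.70 and 1.30 (−0.07 ± 0.19). Tet2 had a log2 fold change of 0.12 ± 0.27 and an interval of 0.70- to 1.68-fold. Dnmt3b, with fewer counts, had −0.09 ± 0.37 and 0.52- to 1.72-fold. Tet1 had −0.45 ± 0.70 and an interval of 0.24- to 2.27-fold, so that a difference of 2-fold either way lay inside it. The median log2 fold change of the 7 genes was 0.12, against 0.00 over all genes tested.

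Summed cell cycle transcripts followed the order of Uhrf1 in the sucrose libraries, but not in the control mesenteric libraries. The summed cell cycle level was 111, 126 and 165 CPM in MAH replicates 1, 2 and 3, in the same order as Uhrf1, against 91.2, 117 and 113 CPM in MAC. MAC replicate 3, at 113 CPM, exceeded MAH replicate 1 but had the lowest Uhrf1 of the 9 libraries, 0.65 CPM. Mki67, the Ki-67 proliferation antigen, was at 1.93, 3.70 and 12.8 CPM in MAH and 2.02, 4.99 and 4.58 CPM in MAC, so MAH replicate 3 alone exceeded the controls. Of 18 cell cycle genes tested, 16 had a log2 fold change above 0 (median 0.41) and none passed. Without MAH replicate 3, 9 of 18 were above 0 (median 0.03), and the log2 fold change of Uhrf1 was 1.22 ± 0.64. Marker lists of other cells in MAH against MAC had 1 of 8 lymphocyte, 4 of 7 macrophage, 5 of 8 endothelial, 0 of 8 fibroblast, 5 of 6 adipocyte and 2 of 8 smooth muscle genes above 0, and none of their genes passed. The part of dividing or other cells in the Uhrf1 difference was not tested.

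**Figure D2:**
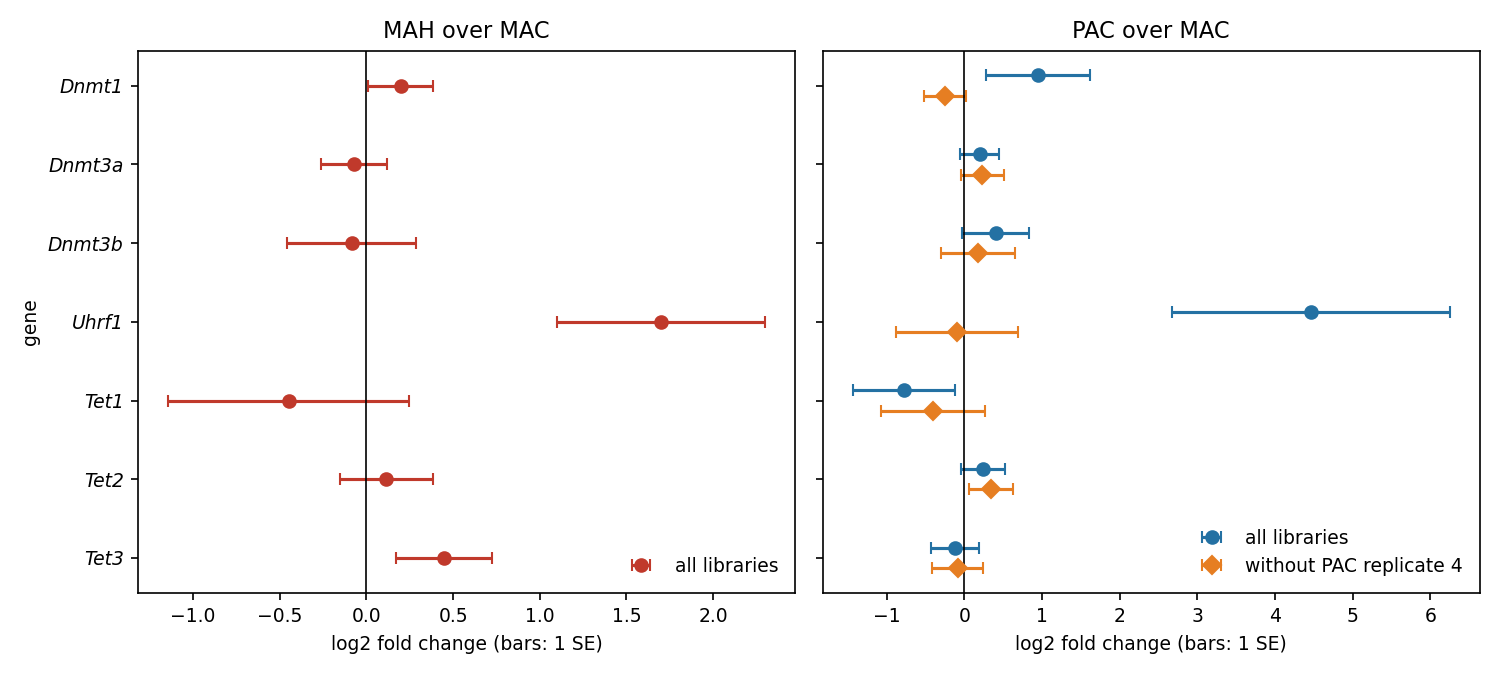
Log2 fold change of each gene in MAH over MAC (left) and PAC over MAC (right), with bars of 1 standard error. Orange diamonds leave out pulmonary replicate 4, with no filter on low counts so that Uhrf1 is included. Uhrf1 lies at 1.70 on the left, and at 4.46 with and −0.10 without that library on the right.

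Pulmonary artery of control offspring was set against mesenteric artery of control offspring as a further artery. Uhrf1 averaged 19.5 ± 32.3 CPM in PAC and 0.90 ± 0.41 CPM in MAC, a log2 fold change of 4.46 ± 1.79 (SE) that rested on replicate 4 and did not pass (adjusted p = 0.570 by edgeR). Without replicate 4, Uhrf1 no longer passed the filter on low counts, and with no filter its log2 fold change was −0.10 ± 0.78. Dnmt1 averaged 55.2 ± 53.4 CPM in PAC and 29.1 ± 4.10 CPM in MAC (log2 fold change 0.95 ± 0.67), and without replicate 4 the sign turned, to −0.25. DESeq2 gave Uhrf1 no p-value in this comparison.

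None of the 7 genes passed in PAC against MAC, where 0.014% of all 14315 genes did, and none had groups that did not overlap, against 14% of all genes, 6.41% higher in PAC and 7.59% lower. At an unadjusted p under 0.05 there was 1 of the 7, Uhrf1, against 8.53% of all genes in either direction and 4.23% higher in PAC. Here too Uhrf1 was tested only because PAC reached the filter, 0.766 CPM of unscaled totals, in 3 of 3 libraries, while MAC reached it in 1 of 3, so its count among those tested is no sign of a difference. For the other 5 genes the means differed by less than the larger of the 2 SDs. Dnmt3a averaged 23.9 ± 3.03 CPM in PAC and 20.9 ± 2.93 CPM in MAC, with a fold between 0.76 and 1.73 at 95% confidence (log2 fold change 0.20 ± 0.25, and 0.23 ± 0.25 without replicate 4). Tet2 averaged 43.6 ± 7.22 CPM in PAC and 36.6 ± 10.4 CPM in MAC (0.74- to 1.89-fold, with a log2 fold change of 0.25 ± 0.28, and 0.34 ± 0.29 without replicate 4). Tet3 averaged 14.9 ± 2.41 CPM in PAC and 16.2 ± 4.08 CPM in MAC (0.55- to 1.54-fold, with a log2 fold change of −0.12 ± 0.31, and −0.09 ± 0.32 without replicate 4). Dnmt3b averaged 4.76 ± 1.26 CPM in PAC and 3.62 ± 0.86 CPM in MAC (log2 fold change 0.40 ± 0.44, and 0.17 without replicate 4). Tet1 averaged 1.23 ± 0.62 CPM in PAC and 2.10 ± 1.16 CPM in MAC (log2 fold change −0.78 ± 0.66, and −0.41 without replicate 4). By group mean, Dnmt1, Uhrf1 and Tet2 ran PAC, MAH, MAC from high to low, Dnmt3a and Dnmt3b ran PAC, MAC, MAH, Tet3 ran MAH, MAC, PAC and Tet1 ran MAC, MAH, PAC. The first place of PAC for Dnmt1 and Uhrf1 rested on replicate 4: without it PAC averaged 24.5 CPM of Dnmt1 and 0.84 CPM of Uhrf1, below both MAH and MAC. Without it, PAC also came before MAH for Tet1, with 1.58 CPM, and the order of the other 4 genes was as with it. Neighbours in these orders overlapped, except Uhrf1 in MAH and MAC as given above.

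In pulmonary replicate 4 the maintenance pair was furthest above the other libraries. Uhrf1 had 48.7 counts per 100 counts of Dnmt1 there, against 3.64 and 3.27 in PAC replicates 1 and 2, 3.90, 7.85 and 16.6 in MAH and 2.29, 5.54 and 1.98 in MAC. The size of this ratio depends on transcript lengths. Its change between libraries does not if each holds the same transcript forms, which was not tested. Outside pulmonary replicate 4 the ratio rests on 7 to 48 counts of Uhrf1, so counting error is large there. Tet1 had its lowest value of all libraries in the same sample, 0.52 CPM from 8 counts, and Dnmt3b its highest, 6.13 CPM against at most 4.51 CPM elsewhere, while Dnmt3a, Tet2 and Tet3 lay within the range of the other libraries. The same library was the highest of 9 for 18 of 19 cell cycle genes, with Mki67 at 221 CPM against 1.50 to 12.8 CPM elsewhere, and for 11 of 12 lymphocyte markers. The part of lymphocytes or dividing cells in the levels of Uhrf1 and Dnmt1 was not tested.

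The list of maintenance and de novo partners held 16 genes, of which 14 were tested in PAC against MAC. Of these, 11 were above 0 and 3 below (median log2 fold change 0.29, against 0.06 over all genes), and none passed. For 11 of the 16, the highest of the 9 libraries was pulmonary replicate 4. Hells, the chromatin remodeller that opens DNA to methylation, was at 2.40, 1.36 and 24.3 CPM in PAC and 4.38, 3.79 and 4.11 CPM in MAC. Its activator Cdca7 was at 0.91, 2.15 and 60.3 CPM in PAC and 2.76, 4.47 and 1.03 CPM in MAC. Hells in PAC replicates 1 and 2 lay below every MAC library, and Cdca7 below MAC replicates 1 and 2, while replicate 4 exceeded all for both. Uhrf2, the paralog of Uhrf1, was at 56.8, 39.8 and 98.6 CPM in PAC and 50.4, 70.6 and 62.6 CPM in MAC, also highest in replicate 4 but by less than Uhrf1. Cdca7l, a paralog of Cdca7, was at 0.41, 1.93 and 15.1 CPM in PAC against 0.61, 0.69 and 1.03 CPM in MAC. Lig1, the DNA ligase of the replication fork, ran from 30.7 to 82.8 CPM in PAC and from 15.3 to 32.8 CPM in MAC. Its log2 fold change was 0.99 ± 0.50, and 0.36 ± 0.33 by limma-voom with quality weights. Without replicate 4 the list had 5 of 14 above 0 (median −0.17), and the cell cycle list had 5 of 16 above 0 (median −0.64), where all 18 tested were above 0 with it (median 3.14). Of cell cycle genes, Tpx2, a spindle factor, had a log2 fold change of 2.66 ± 1.07. Aurkb, a mitotic kinase, had 6.12 ± 2.47, and Rrm2, a ribonucleotide reductase subunit, 3.91 ± 1.61. These rested on replicate 4, at 52.9, 186 and 46.0 CPM, where the lowest PAC values were 2.51, 0.29 and 1.00 CPM. By limma-voom with quality weights they were 0.62, −0.006 and 0.60.

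In MAH against MAC, 13 partners were tested, 8 above 0 and 5 below (median 0.04), and none passed. The smallest p belonged to Nsd1, a histone H3 lysine methyltransferase whose mark guides Dnmt3a (log2 fold change 0.28 ± 0.22), then Dmap1, a partner of Dnmt1 (−0.23 ± 0.20), and Cdca7 (0.45 ± 0.69). Hells was at 4.29 ± 0.46 CPM in MAH and 4.09 ± 0.29 CPM in MAC, and Uhrf2 at 55.9, 57.9 and 76.6 CPM in MAH. Dnmt3l, the catalytically inactive cofactor of the de novo enzymes, had at most 3 counts in any mesenteric library and 31 counts in pulmonary replicate 4, and was not tested in MAH against MAC. Cell cycle genes with the smallest p in that comparison were Tpx2 (0.68 ± 0.35), Ube2c, a mitotic ubiquitin-conjugating enzyme (1.36 ± 0.79), and Mcm6, part of the replicative helicase (0.40 ± 0.26).

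**Figure D3:**
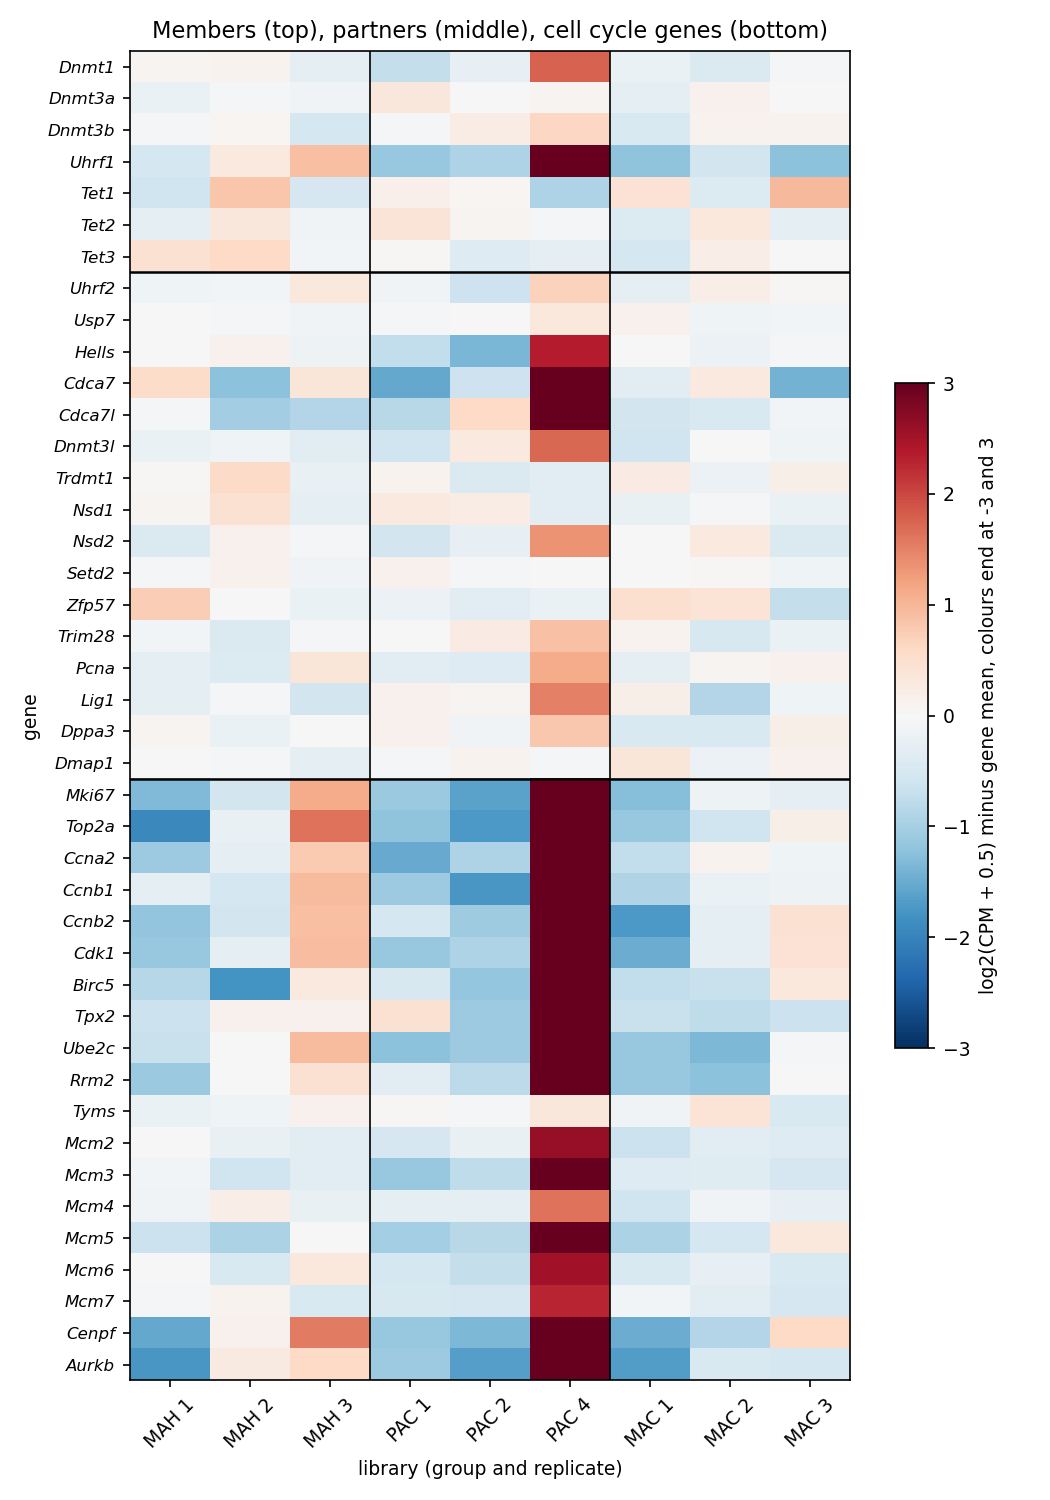
Level of the 7 genes (top), their maintenance and de novo partners (middle) and cell cycle genes (bottom) in each library, as log2(CPM + 0.5) minus the mean of that gene over the 9 libraries, with colours ending at −3 and 3. Pulmonary replicate 4 is the darkest column for Uhrf1, Dnmt1, Hells, Cdca7 and 18 of 19 cell cycle genes, and MAH replicate 3 is raised for Uhrf1, Mki67 and Top2a.

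Readers of methylated and unmethylated CG pairs, 14 genes tested, had 11 above 0 and 3 below in each comparison, with a median log2 fold change of 0.12 in MAH and 0.40 in PAC, and none passed in either. Without pulmonary replicate 4, 10 of 14 were above 0 in PAC (median 0.12). Kdm2b and Cxxc5, which hold the CXXC domain for unmethylated CG pairs, had log2 fold changes of 0.35 ± 0.27 and 0.26 ± 0.23 in MAH against MAC. In PAC against MAC, Cxxc5 was at 47.7, 66.7 and 51.5 CPM in PAC against 39.9, 23.8 and 36.0 CPM in MAC (log2 fold change 0.74 ± 0.26, and 0.78 ± 0.28 without replicate 4). Kdm2a, a histone demethylase with the same domain, was at 136, 125 and 147 CPM in PAC against 92.4, 110 and 86.2 CPM in MAC (0.51 ± 0.23). Cxxc4, from which the TET2 partner IDAX is made in mammals, was at 7.12, 4.73 and 2.19 CPM in PAC against 2.29, 1.20 and 0.47 CPM in MAC (1.81 ± 0.71), with the groups overlapping in replicate 4.

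Among regulators of TET enzymes and genes of base excision repair, which replaces oxidised methylcytosine, 15 genes were tested in each comparison and none passed by edgeR. In MAH 8 were above 0 and 7 below (median 0.02). In PAC 11 were above 0 and 4 below (median 0.15), and without replicate 4 there were 7 above and 8 below (median −0.04). Gadd45a, a stress protein that has been linked to demethylation, was at 11.5, 14.8 and 19.6 CPM in PAC against 47.5, 48.1 and 48.9 CPM in MAC. It thus lay below every control mesenteric library, as did 7.59% of all genes tested. For Gadd45a the fits gave the following. Its log2 fold change was −1.65 ± 0.27 (adjusted p = 0.159 by edgeR), the smallest p among the genes of these 5 lists, and −1.87 ± 0.22 without replicate 4 (adjusted p = 0.0589). It passed by DESeq2 (adjusted p = 3.0e-05), by limma-voom with quality weights (adjusted p = 0.0357), in a joint edgeR fit of the 9 libraries (adjusted p = 0.0485) and by edgeR without replicate 4 and with no filter (adjusted p = 0.0066). In that order these fits called 408, 33, 38 and 149 genes in all, against 2 in the main fit. Over all alternatives the adjusted p of Gadd45a ran from 3.0e-05 to 0.710, and its log2 fold change was below 0 in each. In MAH Gadd45a was at 38.5, 50.9 and 53.5 CPM. Parp1, the poly(ADP-ribose) polymerase of repair, and Neil1, a DNA glycosylase, had log2 fold changes of 1.35 ± 0.56 and 2.61 ± 1.16 in PAC, with their highest values, 171 and 130 CPM, in replicate 4. Without it these were 0.68 ± 0.41 and 0.03 ± 0.37. In MAH against MAC, the smallest p belonged to Parp1 (−0.21 ± 0.18), Gadd45g (−0.29 ± 0.26), a paralog of Gadd45a, and Idh1 (0.23 ± 0.24), a source of the oxoglutarate that TET enzymes consume.

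The methyl donor cycle, which makes the S-adenosylmethionine that methyltransferases use, had 14 genes tested in each comparison and none passed. In MAH 9 were above 0 and 5 below (median 0.11). In PAC 8 were above 0 and 6 below (median 0.05), and without replicate 4 there were 7 above and 6 below of 13 tested (median 0.12). Mat2a, the adenosylmethionine synthetase of most tissues, was at 275, 283 and 164 CPM in PAC against 404, 618 and 378 CPM in MAC, without overlap (log2 fold change −0.96 ± 0.36, adjusted p = 0.551 by edgeR). Of all genes tested in PAC against MAC, 7.59% were lower without overlap. By limma-voom with quality weights the log2 fold change of Mat2a was −0.67 ± 0.27. Cbs, which draws homocysteine out of the cycle, was at 1.24, 1.72 and 0.71 CPM in PAC against 4.17, 13.4 and 1.77 CPM in MAC (−2.41 ± 0.84). Shmt1, a serine hydroxymethyltransferase of folate metabolism, was at 4.47, 5.44 and 51.8 CPM in PAC against 1.68, 3.96 and 2.24 CPM in MAC (2.99 ± 1.08, and 0.91 ± 0.49 without replicate 4). In MAH against MAC, Mat1a, the liver form of the synthetase, was at 4.55, 4.65 and 0.86 CPM in MAH against 1.01, 0.09 and 0.84 CPM in MAC (2.36 ± 0.88, adjusted p = 1.00 by edgeR). Shmt1 was at 8.79, 5.50 and 2.77 CPM in MAH (1.12 ± 0.53), and Ahcy, which clears adenosylhomocysteine, had 0.33 ± 0.22. In both Mat1a and Shmt1, MAH replicate 3 lay within the control range while replicates 1 and 2 exceeded it.

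Levels of Tet1 and Tet2 were set beside cell type markers. The 3 libraries with the most Tet1, MAC replicate 3, MAH replicate 2 and MAC replicate 1, were also those with the highest summed smooth muscle markers, at 29597, 26694 and 41817 CPM. Pulmonary replicate 4, lowest for Tet1, was lowest for these markers at 3399 CPM. The order was not kept throughout, since MAH replicate 1 had 0.77 CPM of Tet1 at 21988 CPM of markers, against 0.95 CPM in MAC replicate 2 at 10227 CPM. The 3 libraries with the least Tet2, MAC replicate 1, MAC replicate 3 and MAH replicate 1, had the lowest sums of 7 macrophage markers, at 187, 325 and 213 CPM. The others ran from 354 to 1473 CPM, with pulmonary replicate 4 highest for the markers but not for Tet2. Within PAC the order of Tet2 was the reverse of that of the summed markers, though not of their mean log2 level. In MAH, replicate 3 had more of the summed markers than replicate 2, 410 against 354 CPM, but less Tet2. These pairings were picked after the values were seen, and the part of either cell type in the result was not tested.

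**Figure D4:**
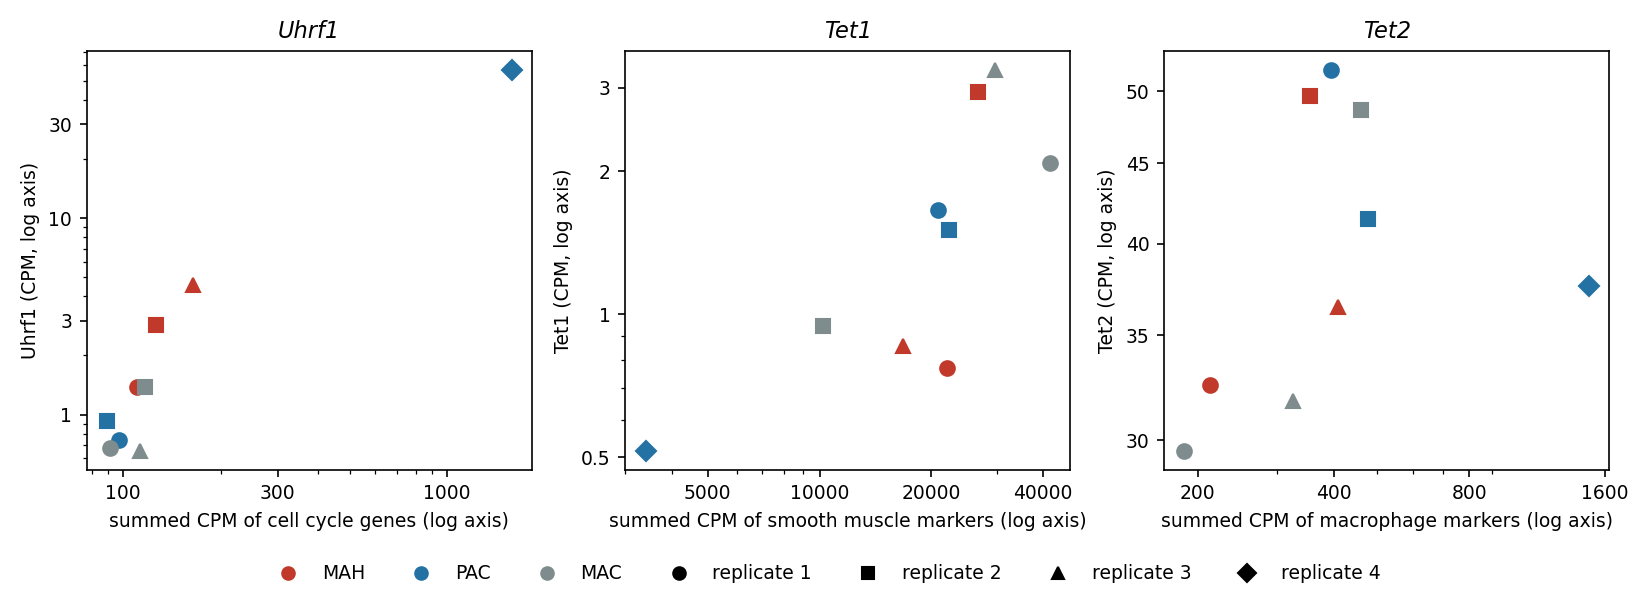
Level of Uhrf1 against summed cell cycle genes, of Tet1 against summed smooth muscle markers and of Tet2 against summed macrophage markers, 1 point per library, all in CPM on log axes. Colours give the group and symbols the replicate number. Pulmonary replicate 4 lies at the far end of each horizontal axis, for the macrophage markers mostly through Lyz2, at 1288 CPM. The 3 lowest libraries for Tet2 are the 3 lowest for macrophage markers.

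The genes most like each member were sought by the root mean square difference over the 9 libraries of log2(CPM + 0.5) centred on each gene, among 11669 genes. Uhrf1 was most like Plk1, a mitotic kinase (0.42), then Runx3, a transcription factor of lymphocytes (0.51), and Scimp, a signalling adaptor of immune cells (0.51), where its own spread was 1.70 and the median gene differed by 1.75. Plk1 was at 1.39, 2.47 and 3.82 CPM in MAH and 1.33, 1.15 and 45.6 CPM in PAC, against 1.28, 1.64 and 1.87 CPM in MAC. Dnmt1 was most like Cib1 (0.21), Grk6, a receptor kinase (0.21), and Rbl1, a retinoblastoma family repressor of the cell cycle (0.21), with a spread of 0.67. Tet1 was most like Fam131b (0.21), Pld1, a phospholipase (0.29), and Lrch1 (0.29), with a spread of 0.62. For Tet2 these were Zfp236 (0.15), Fhip2a (0.16) and Taok1, a kinase (0.17), and for Tet3 they were Mrnip (0.12), Pla2g4f (0.16) and N4bp2 (0.21). Dnmt3a was near Srcap (0.10), Eif3h (0.11) and Wdr41 (0.11), but its own spread was only 0.17, and Dnmt3b near Cad (0.15), Atg7 (0.15) and Catsper2 (0.16), with a spread of 0.33. Pulmonary replicate 4 was among the 9 libraries used, and the search was not repeated without it. Libraries share depth and composition, so a near pattern is a description of these 9 libraries.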

How the data were processed

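The deposited values are raw read counts per gene, in whole numbers and without normalization, in 9 tables of 1 library each. The build was rn7, per the submitters' processing notes. Which aligner, counter, gene models and strand setting the authors used is not given in the sources used here. Per the labels' protocols, poly(A) RNA was enriched with oligo(dT) beads and copied with random primers. Reads that copies or antisense transcripts share with a gene cannot be separated.

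Each comparison was fitted on its own 6 libraries with edgeR 4.0.16 in R 4.3.3: TMM factors, filterByExpr, robust quasi-likelihood F test, Benjamini-Hochberg adjustment over all genes tested, threshold 0.05. Standard errors are the log2 fold change over the square root of F, and 95% intervals use the fit's degrees of freedom. Levels are CPM after TMM scaling of the 9 libraries together. The fit was tested on simulated data, with the same dispersion for every gene and no outlying library. That test does not cover spread such as that caused by pulmonary replicate 4. Counting intervals are exact Poisson and cover counting error only, since no molecular identifiers are stated.

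The members and lists were chosen with earlier results of these data known. Of 160 listed genes, 155 were found by symbol. Named genes are the 7 members, the 3 genes of smallest p per list and comparison, the 3 most like each member (average log2 CPM of at least 1) and the first 2 genes of each marker list, some of which are not reported here. Hells, Uhrf2, Mki67, Dnmt3l, Cd3e, Myh11, Acta2 and Top2a were named after their values were seen. Alternatives were median-ratio and upper quartile factors, DESeq2 1.42.0, limma-voom 3.58.1, other filters, a joint fit of the 9 libraries, a block on replicate number, and libraries left out. Group means and values of single list genes under these alternatives were added after seeing the data.

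Libraries of a group differed by 45.7 to 332 chi-square per degree of freedom, so none was a repeat of another within counting error. RefSeq promoter windows were found for 6 of the 7 members (GRCr8), and not used for Dnmt3b.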

Additional observations from a re-analysis of the deposited data

How the results depend on the processing

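With each library left out in turn, no member passed in either comparison. For MAH against MAC the log2 fold changes then ran from 0.11 to 0.30 for Dnmt1, −0.19 to 0.031 for Dnmt3a, −0.28 to 0.083 for Dnmt3b, 1.22 to 2.15 for Uhrf1, −1.33 to 0.0023 for Tet1, −0.074 to 0.39 for Tet2 and 0.25 to 0.63 for Tet3. For PAC against MAC they ran from −0.25 to 1.33 for Dnmt1, 0.07 to 0.29 for Dnmt3a, 0.17 to 0.56 for Dnmt3b, 4.25 to 5.00 for Uhrf1 (with replicate 4 in), −1.12 to −0.32 for Tet1, 0.09 to 0.52 for Tet2 and −0.33 to 0.057 for Tet3. Without pulmonary replicate 4 and with no filter, chosen after seeing the data, Dnmt1 was at −0.25 and Uhrf1 at −0.10, and 149 genes were called. With PAC reduced to replicate 1, whose spread is then assumed to be that of MAC, Dnmt1 was at −0.53, Dnmt3b at −0.010, Uhrf1 at −0.29 and Tet3 at 0.10, and 0 genes were called. Limma-voom with quality weights gave 0.015 for Dnmt3b in MAH against MAC and −0.15 for Dnmt1 in PAC against MAC, and for Uhrf1 in PAC 0.57. The cause of these 3 was not tested.

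With the replicate number as a block, Dnmt1 was at −0.18, Uhrf1 at −0.26 and Tet1 at 0.12 in PAC against MAC. That fit compares only replicates 1 and 2, since numbers 3 and 4 occur in 1 group each. It called 36 genes there and none in MAH against MAC, where Uhrf1 was at 1.61. Deviations of equal numbers in MAH and MAC correlated at 0.20, −0.30 and 0.12, and those of unequal numbers at −0.47 to 0.34. With so few libraries these values cannot show whether equal numbers share an animal or litter.

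In MAH against MAC 0 genes were called, and 3 by DESeq2. In PAC against MAC 2 were called, 408 by DESeq2, 33 by limma-voom, 38 with all 9 libraries in 1 fit and 0 to 22 with 1 library left out, the 22 without pulmonary replicate 4. Uhrf1 has no value in PAC against MAC without replicate 4 or under the stricter filter, which it did not pass. Depth limits Uhrf1 and Tet1 most, which had 7 to 48 and 9 to 35 counts in mesenteric libraries.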
